A study of Sus scrofa with 5 samples.

Results

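The miRNAs described here carry a number of 2000 or higher after ssc-miR-, the prefix for miRNAs of the pig (left out below). The number alone chose them, from the names in the 5 deposited tables, with every arm kept. They are 117 of the 411 mature miRNA names, and belong to 104 hairpin names, since a hairpin can give a 5p and a 3p arm. The smallest number among them is 2320 and the largest 9862. Of the 117 names, 23 were listed above 0 in at least 1 fluid and 94 were at 0 in all 5.

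A miRNA is cut from a hairpin precursor, and the arm that is loaded into an Argonaute protein directs it to messenger RNAs. The other arm is mostly degraded, so the arms of 1 hairpin usually differ in level. miRNA names are numbered roughly in the order in which they were described, so that low numbers mostly belong to conserved, abundant miRNAs and high numbers to later finds from deep sequencing, often known from few species. Exosomes, small vesicles that cells release, carry miRNAs into body fluids. Whether a name is restricted to the pig or to livestock was not tested, because the names do not show it.

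The pigs were of the Rongchang breed and were sampled on postnatal day 180. Exosomes were isolated from their serum, plasma, bile, urine and semen, and each fluid gave 1 library. Serum and plasma are the liquid of blood after clotting and with the clotting factors kept. The labels name no treatment or genotype and do not give the number of animals. With 1 library per fluid there is no replicate check, and every interval below is a 95% interval for counting error alone.

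The libraries held 26522 (urine) to 2284926 (semen) miRNA counts, and the depth for a rare miRNA followed from that. The smallest count above 0 was 10 in each table, so a listed 0 stands for 0 to 9 reads. A count of 10 was worth 377 counts per 1000000 miRNA counts (CPM) in urine, against 4.38 in semen, 5.98 in bile, 8.67 in plasma and 21.1 in serum. The fluid labels were checked on known miRNAs. The 4 liver miRNAs (miR-122, miR-192, miR-194a, miR-885-5p) summed to 19.7% of counts in bile and at most 1.70% elsewhere. The 3 kidney miRNAs (miR-204 and both arms of miR-30a) summed to 23.4% in urine and at most 2.05% elsewhere. miR-30a-5p alone gave 22.1% in urine. miR-34c (604 counts) and miR-202-5p (11 counts), known from the testis, were listed in semen alone, while miR-202-3p was at 0 everywhere. The CPM of miR-202-5p was under that of 10 counts in each other fluid, so it could not check the label. The CPM of miR-34c was under that of 10 counts in urine alone, so it sets semen apart from the other fluids but not from urine. The fourth semen miRNA checked, miR-10a-5p, took 5.33% of counts in semen and 4.63% in urine, so the semen list of 4 summed to 5.35% in semen and 4.63% in urine. The 4 blood cell miRNAs of the tables (miR-451, miR-486, miR-144, miR-150) summed to 10.4% in serum and 0.586% in plasma, while urine had 0.468%, bile 0.423% and semen 0.000525%. This list thus set serum apart, but hardly plasma from urine and bile.

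Few of the high-numbered names were listed in any fluid. Plasma listed 15 of the 117, serum 13, semen 10, bile 7 and urine 2. This was 12.8% in plasma, where 39.2% of all 411 names were listed, 11.1% in serum against 43.8%, 8.55% in semen against 42.3%, 5.98% in bile against 43.6% and 1.71% in urine against 20.4%. The share of names listed in at least 1 fluid was 100% for let-7, 84.3% for numbers under 200, 60.6% for numbers from 200 to under 1000, 57.1% for those from 1000 to under 2000 and 19.7% for 2000 or higher. In each fluid the high-numbered group had the lowest share listed of these 5 groups. These numbers depended on depth. With each library thinned to 26522 counts, serum kept a median of 3 high-numbered names, plasma 2, bile 2 and semen 1, beside the 2 of urine.

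**Figure D1:**
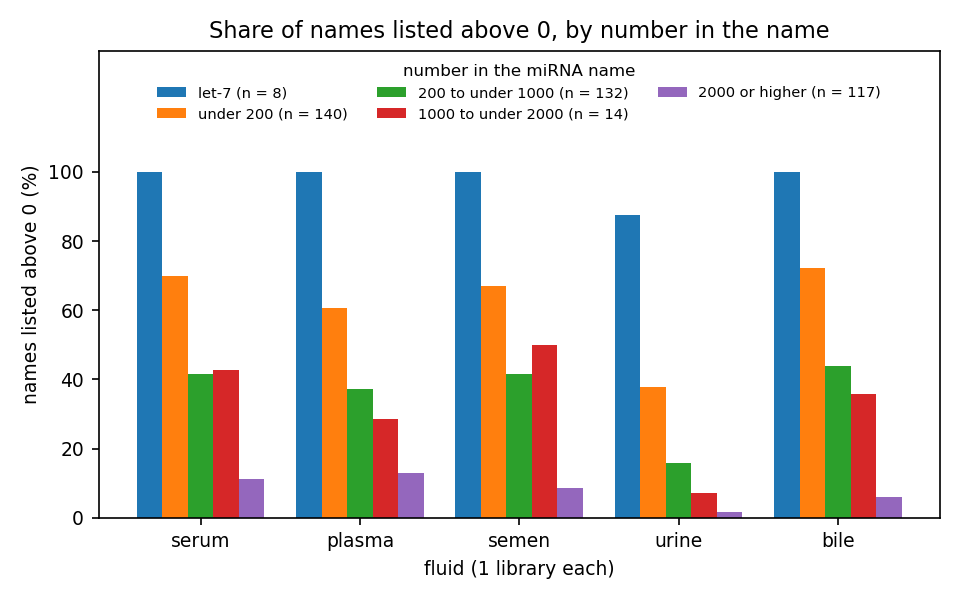
Share of names listed above 0 (percent, y axis) in each fluid (x axis), with 1 bar for each group of names by number. The bars for 2000 or higher, at 1.71% to 12.8%, are the lowest in each fluid.

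The listed names were spread unevenly over the number range. All 5 names in the 2000s were listed in some fluid, as were 10 of 23 in the 7000s and 3 of 8 in the 4000s. Only 5 of the 79 names in the 9000s, 6.33%, were listed: miR-9820-5p, miR-9841-3p, miR-9843-3p, miR-9858-5p and miR-9860-5p. The only names in the 3000s and the 6000s, miR-3613 and miR-6782-3p, were at 0 in all fluids. Of the listed 23 names, 14 reached 100 counts in some fluid and 2, miR-9820-5p and miR-7134-3p, reached 1000. Of all 237 listed names, 166 reached 100 counts and 87 reached 1000. The names just below the limit of 2000 were miR-1839, miR-1468 and miR-1343. They had 0 to 88 counts, and none was listed in urine.

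Together the high-numbered miRNAs took the largest share of counts in plasma. Their sum was 15378 counts in plasma, 1.33% of the miRNA counts (1.31 to 1.35). It was 2711 counts in serum, or 0.573% (0.552 to 0.595), and 2607 in bile, or 0.156% (0.150 to 0.162). Semen had 1963 counts, or 0.0859% (0.0822 to 0.0898). Urine had 43 counts, or 0.162% (0.117 to 0.218), an interval that holds the value of bile.

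In each fluid 1 miRNA made up a large part of the sum. miR-9820-5p gave 82.8% of it in plasma. miR-7134-3p gave 46.1% in serum, 55.7% in semen and 66.5% in bile, and miR-4331 gave 65.1% in urine. Without its leading miRNA the sum came to 0.309% for serum, 0.229% for plasma, 0.0566% for urine, 0.0522% for bile and 0.0380% for semen. The first place of plasma therefore rested on miR-9820-5p when levels were taken relative to the miRNA counts. On the authors' RPM, which is relative to a larger library total, plasma had a sum of 2134, serum 256, bile 247, semen 182 and urine 3.98.

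**Figure D2:**
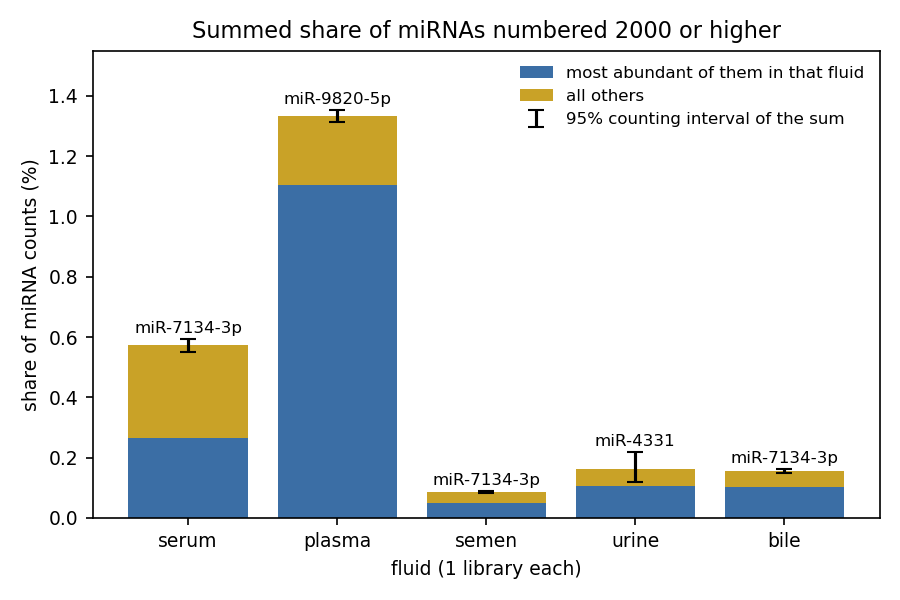
Summed share of the miRNA counts (percent, y axis) taken by the high-numbered miRNAs in each fluid (x axis), split into the most abundant of them, named above the bar, and all others. Error bars are 95% counting intervals of the sum, which is 1.33% in plasma and 0.0859% in semen.

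miR-7134-3p was the only one of these miRNAs listed in all 5 fluids. Its hairpin lies within the bounds of TNRC6B, a gene whose protein works with Argonaute in miRNA silencing. Bile gave 1733 counts of it, plasma 1267, serum 1249, semen 1094 and urine 15. On the CPM scale serum stood at 2640 (2495 to 2790), plasma at 1098 (1039 to 1160), bile at 1036 (988 to 1086), urine at 566 (317 to 933) and semen at 479 (451 to 508). The intervals of plasma and bile overlapped, as did those of urine and semen, so neither pair is ordered. The place of serum at the top depended on the scaling. On the authors' RPM plasma stood first with 176, followed by bile with 164, serum with 118, semen with 101 and urine with 1.39.

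Plasma was the leading fluid of 10 of the 23 listed miRNAs by CPM. The same number over all listed names is not given here, so it is not read as a trait of these miRNAs. miR-9820-5p, whose hairpin lies within the bounds of SIL1, a gene for a folding factor of the endoplasmic reticulum, had 12740 counts in plasma and 10 in serum, and was at 0 in semen, urine and bile. Its 11042 CPM made it the seventh miRNA of the plasma library by abundance (rank 7), and rank 173 in serum. Beside the 522-fold ratio over serum (284 to 1090), its level was at least 1848 times that of bile, taken at 10 counts (lower end of the interval 1004). On the authors' RPM the ratio over serum was 1872.

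The other plasma-leading miRNAs were far below it. miR-7137-3p had 272 counts in plasma and 0 in the other fluids. miR-4334-3p had 242 counts in plasma, 37 in semen and 19 in serum, and was at 0 in urine and bile. miR-7144-5p had 161 counts in plasma and 18 in semen, and was at 0 in serum, urine and bile. These 3 ranked 58, 62 and 72 in the plasma library. miR-7139-3p with 142 counts and miR-9860-5p with 105 were listed in plasma alone.

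Ratios of these miRNAs are lower bounds where the next fluid was at 0. With a listed 0 in serum taken as 10 counts, the plasma level was at least 11.2 times that of serum for miR-7137-3p (lower end 5.97), 6.60 times for miR-7144-5p (3.50), 5.82 times for miR-7139-3p (3.08) and 4.31 times for miR-9860-5p (2.25). miR-4334-3p was 5.22 times its serum level (3.27 to 8.83). No bound could be given against urine, since each of these levels was under the 377 CPM that 10 counts make there. The 4 remaining plasma-leading miRNAs had 13 to 82 plasma counts. They were miR-7143-3p with 82, miR-7137-5p with 73, miR-2366 with 47 and miR-7857-3p with 13, and only miR-7137-5p was listed elsewhere, with 12 counts in serum.

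**Figure D3:**
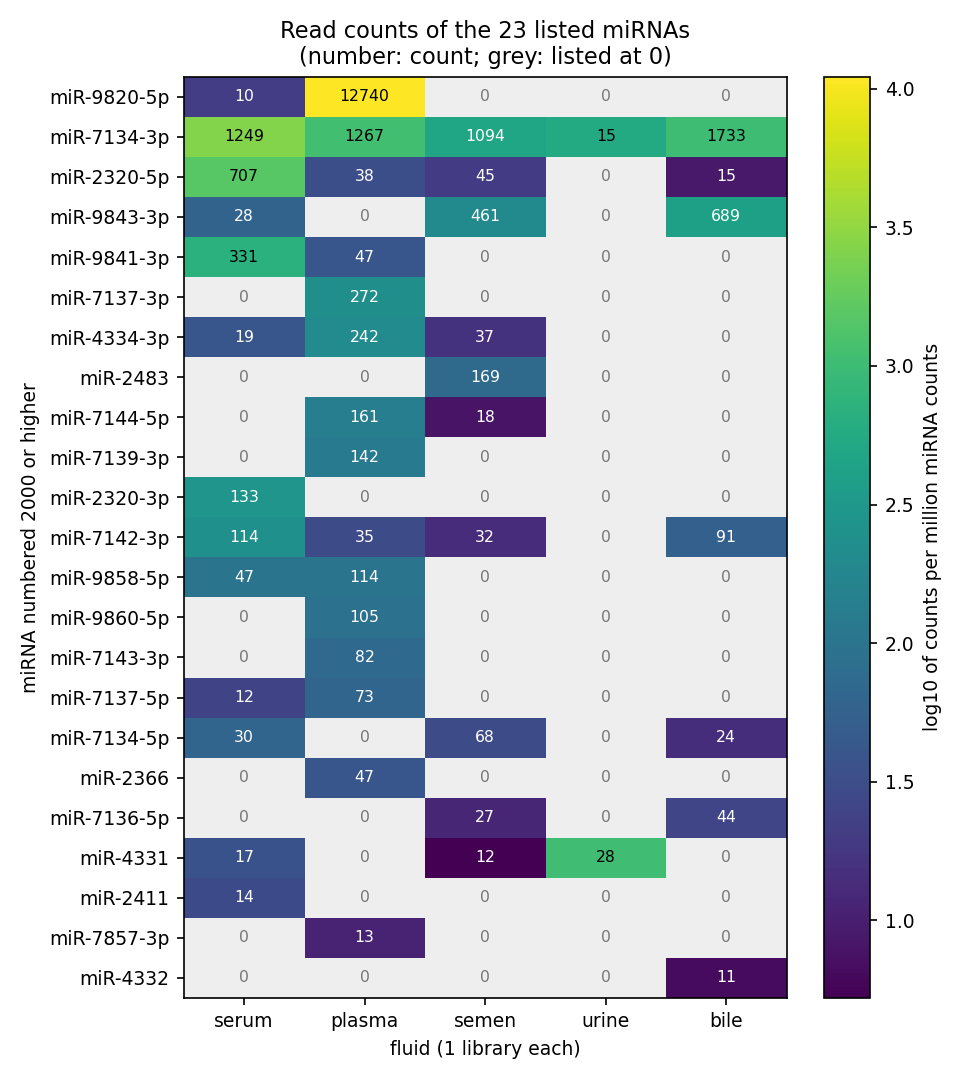
Read counts (printed in each cell) of the 23 listed high-numbered miRNAs (y axis) in the 5 fluids (x axis), coloured by log10 of CPM and grey where listed at 0. miR-7134-3p alone is above 0 in all 5 columns, and the plasma column holds the highest count, 12740 for miR-9820-5p.

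Serum was the leading fluid of 8 listed miRNAs by CPM, miR-7134-3p among them. It led for 5 under TMM, DESeq2 size factors or the authors' RPM, where plasma led for 13, 13 and 12. These numbers too stand without a count over all listed names, so the move towards plasma is not read as a trait of these miRNAs. The median plasma to serum ratio over all miRNAs compared moved the same way, as given below. By CPM miR-2320-3p, miR-7142-3p, miR-9858-5p, miR-7134-5p and miR-2411 were under 377 in serum, so urine could not be ordered against them. miR-2320-5p had 707 counts in serum, 38 in plasma, 45 in semen and 15 in bile, and was at 0 in urine. Its 1494 CPM in serum was 45.4 times the plasma level (32.7 to 64.7). Its partner arm miR-2320-3p had 133 counts in serum and was listed nowhere else. This was at least 32.4 times plasma taken at 10 counts (lower end 17.1), a bound that dropped to 9.05 on the authors' RPM, 3.28 under TMM scaling and 3.18 with DESeq2 size factors. miR-9841-3p had 331 counts in serum and 47 in plasma, and was at 0 in semen, urine and bile. It was 17.2 times its plasma level (12.6 to 23.8), and its hairpin lies within F13A1, the gene for the A subunit of coagulation factor XIII.

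The remaining serum-leading miRNAs had lower counts. miR-7142-3p, within the bounds of the kinase gene MARK2, had 114 counts in serum, 91 in bile, 35 in plasma and 32 in semen, and was at 0 in urine. It was 4.43 times its bile level (3.33 to 5.90) by CPM and 1.25 times on the authors' RPM. miR-9858-5p had 47 counts in serum and 114 in plasma, which is 99.3 and 98.8 CPM, a ratio of 1.01 (0.700 to 1.42), so its leading fluid is not resolved. miR-7134-5p had 68 counts in semen, 30 in serum and 24 in bile, so that serum led by CPM and semen on the authors' RPM, at 6.30 against 2.83. miR-2411 had 14 counts in serum alone.

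Bile and semen each led for few of these miRNAs. miR-9843-3p, within the bounds of the sphingomyelin synthase gene SGMS2, had 689 counts in bile, 461 in semen and 28 in serum, and was at 0 in plasma and urine. Its 412 CPM in bile was 2.04 times the semen level (1.81 to 2.30) and at least 47.5 times plasma taken at 10 counts (lower end 25.7). The bound against plasma became 9.16 under TMM scaling and 7.17 with DESeq2 size factors. Among the fluids that listed them, miR-9843-3p and miR-7136-5p both had bile first and semen second by CPM. miR-7136-5p had 44 counts in bile and 27 in semen, or 26.3 and 11.8 CPM. Its semen level was under the 21.1 CPM of 10 counts in serum, and both levels were under the 377 CPM in urine. The 202 CPM of miR-9843-3p in semen was also under that urine level. The places of these listed zeros are thus not resolved. miR-4332 had 11 counts in bile alone. miR-2483, within the bounds of the teneurin gene TENM1, had 169 counts in semen and was listed nowhere else. Its 74.0 CPM was at least 3.50 times serum taken at 10 counts (lower end 1.86), and 1.51 times with TMM or 1.56 times with DESeq2 size factors.

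Urine listed 2 of these miRNAs. miR-4331 had 28 counts in urine, 17 in serum and 12 in semen, and was at 0 in plasma and bile. As CPM this was 1056 in urine (702 to 1525), 35.9 in serum (20.9 to 57.5) and 5.25 in semen (2.71 to 9.17). On the authors' RPM the values were 2.59, 1.60 and 1.11, so urine kept the highest value but the distance shrank. On that scale the order of urine and serum rests on 28 against 17 reads and is not resolved. The urine values rest on the smallest library, in which miRNAs took 0.246% of the library total behind the authors' RPM, against 4.47% to 21.2% in the other 4 fluids. Which reads that total counts is not stated in the sources used here, so the values on the authors' RPM rest on an undefined denominator.

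A miRNA was called enriched in a fluid if its count reached 100 and its CPM was 4 or more times that of each other fluid, with counts under 10 taken as 10. Of the high-numbered miRNAs with 100 counts, 1 of 8 passed in plasma, miR-9820-5p, where 8.14% of all miRNAs with 100 counts passed. In serum 0 of 5 passed, where 12.6% of all did, in semen 0 of 3 against 1.80%, and in bile 0 of 2 against 3.48%. No high-numbered miRNA had 100 counts in urine, where 26.9% of all passed. The urine floor of 377 CPM limited these numbers. Without the urine library 6 of 8 passed in plasma, where 18.6% of all did, and 4 of 5 in serum, where 28.2% of all did. In semen 0 of 3 passed then, against 7.21% of all, and in bile 0 of 2, against 9.57%. In plasma they were miR-9820-5p, miR-7137-3p, miR-7144-5p, miR-4334-3p, miR-7139-3p and miR-9860-5p. In serum they were both arms of miR-2320, miR-9841-3p and miR-7142-3p. The filter of 100 counts bears on these numbers. Of the 8 with 100 counts in plasma, 7 fell short of 100 in serum, and 4 of the 5 in serum fell short in plasma. Of all 119 miRNAs with 100 counts in either fluid, 70 reached it in both. With no replicates, no difference from these backgrounds was tested, and none is drawn.

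Many of the high-numbered miRNAs were listed in a single fluid. This held for 10 of the 23 listed, 43.5%, where 15.6% of all 237 listed names were found in a single fluid. Of the 10, 6 were in plasma (miR-7137-3p, miR-7139-3p, miR-9860-5p, miR-7143-3p, miR-2366 and miR-7857-3p), 2 in serum (miR-2320-3p and miR-2411), 1 in semen (miR-2483) and 1 in bile (miR-4332). Over all names plasma held 13 of the 37 single-fluid ones. Low counts make a single listing more likely, so the names were also divided by their highest count, a division chosen after the data were seen. Among names with a highest count from 10 to under 100, 5 of 9 high-numbered and 23 of 62 other names were in a single fluid. Among those from 100 to under 1000 it was 5 of 12 high-numbered names against 3 of 67 others. The 2 high-numbered names with 1000 counts or more, miR-9820-5p and miR-7134-3p, were listed in 2 and in 5 fluids. All 10 single-fluid names were under the 377 CPM that 10 counts make in urine, so urine could not list them at an equal level. The division by highest count does not remove this limit. These are counts of names in 1 library per fluid, given with no test, and no contrast with the other names is drawn.

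Serum and plasma were compared over the 119 miRNAs with 100 counts in either, 12 of them high-numbered. At least 2-fold higher in plasma by CPM were 6 of the 12, where 20.2% of all 119 were. At least 2-fold higher in serum were 5 of the 12, where 73.1% of all were. The remaining one was miR-9858-5p. Of the 12 ratios, 5 are bounds, 4 of them towards plasma. The filter set most of these directions: 7 of the 12 reached 100 counts in plasma alone, the 6 higher there among them, 4 in serum alone and 1, miR-7134-3p, in both. Of all 119, 16 did so in plasma alone, 33 in serum alone and 70 in both. A count of 100 is 86.7 CPM in plasma and 211 CPM in serum, so rare miRNAs entered more easily through plasma, and no contrast with the background is drawn.

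Part of these directions turned with the scaling. CPM is relative to a total that in plasma was mostly 3 miRNAs of lower number. miR-378, miR-320 and miR-423-5p stood at 413974, 256353 and 168632 CPM in plasma, against 14325, 9614 and 14680 in serum. Plasma CPM of all other miRNAs is a part of what these left. Their part in the serum to plasma ratios was not tested. The median log2 ratio of plasma over serum across all 119, with a listed 0 taken as 10 counts, moved from -2.76 by CPM to 0.54 with edgeR's TMM library sizes and to 0.59 with DESeq2 size factors, and was -0.92 on the authors' RPM. With either TMM or DESeq2 8 of the 12 were at least 2-fold higher in plasma, where 43.7% of all were, and 2 of the 12 in serum, where 28.6% of all were. On the authors' RPM 7 of the 12 were higher in plasma (26.1% of all) and 4 in serum (48.7% of all). miR-7134-3p turned from serum, at 2.40 times plasma by CPM (2.22 to 2.60), to plasma, at 4.11 times serum with TMM, 1.49 times on the authors' RPM and 4.24 times with DESeq2 size factors. miR-7142-3p was 7.94 times higher in serum by CPM and 2.22 times on the authors' RPM, but higher in plasma with DESeq2 size factors, by 1.28 times, and with TMM, by 1.24 times.

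The 2 arms of miR-2320 and miR-9841-3p were higher in serum under all 5 scalings compared. miR-2320-5p was 4.59 times higher with TMM, 12.7 times on the authors' RPM and 4.45 times with DESeq2 size factors. For miR-9841-3p the ratios were 1.74, 4.79 and 1.69. The 6 miRNAs that were higher in plasma by CPM were also higher there under the other 4 scalings. The blood cell miRNAs given above, with all 4 listed in both fluids, were also higher in serum by CPM, at 10.4% against 0.586% of counts. Their part in the serum values of these miRNAs was not tested.

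**Figure D4:**
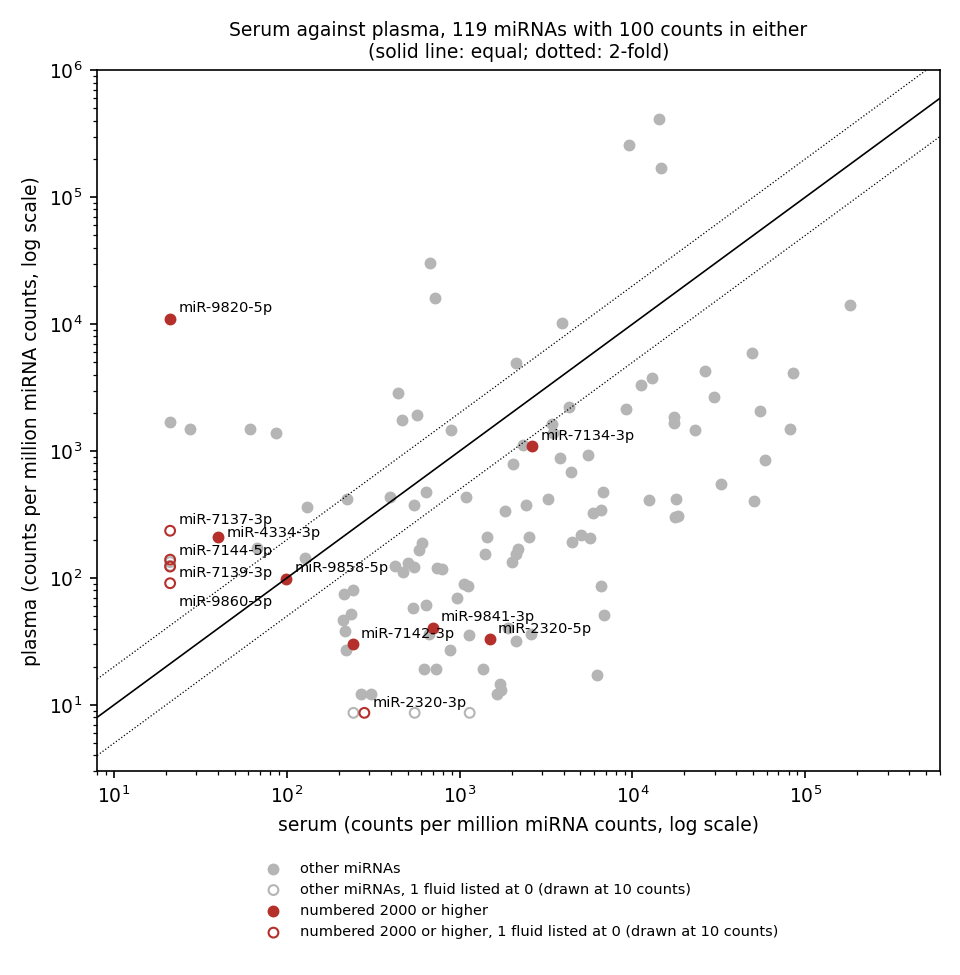
CPM in serum (x axis, log scale) against CPM in plasma (y axis, log scale) for the 119 miRNAs with 100 counts in either fluid, with the 12 high-numbered ones named and open circles for miRNAs at 0 in 1 fluid, drawn at 10 counts. Most grey points lie under the line of equality. Of the named miRNAs 6 lie above the upper 2-fold line and 5 below the lower one. The filter of 100 counts set most of these positions, so no contrast with the grey points is drawn.

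The sum of the high-numbered miRNAs was 2.33 times higher in plasma than in serum by CPM (2.23 to 2.42). Without miR-9820-5p it was 0.401 times (0.380 to 0.423), so the direction turned on that miRNA. This second ratio depended on the scaling as well, at 3.96 with TMM, 1.44 on the authors' RPM and 4.08 with DESeq2 size factors.

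Both arms were named for 13 of the high-numbered hairpins. Neither arm was listed in 4 of them (miR-7135, miR-7138, miR-7140, miR-7141), and in 6 a single arm was listed. Those were the 3p arms of miR-4334, miR-7139, miR-7142 and miR-7143 and the 5p arms of miR-7136 and miR-7144. Both arms were listed, in some fluid, for miR-2320, miR-7134 and miR-7137. miR-2320 was mostly its 5p arm, with 133 of 840 serum counts, 15.8% (13.4 to 18.5), from the 3p arm. In plasma, semen and bile, with 15 to 45 counts of the 5p arm, a 3p share of this size would fall at or under the 9 reads that a listed 0 can stand for.

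The arm shares of miR-7134 differed between fluids beyond counting error. The 5p arm took 5.85% of the hairpin's counts in semen (4.57 to 7.36), 2.35% in serum (1.59 to 3.33) and 1.37% in bile (0.877 to 2.03). In plasma the 5p arm was at 0 beside 1267 counts of the 3p arm, and taken as 9 reads it came to 0.705%, with 1.33% as the upper end of its interval. Semen thus had the highest 5p share, its interval lying above those of serum, bile and plasma. Urine, with 15 counts of the 3p arm, could not be placed.

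The arms of miR-7137 went apart in the 2 blood fluids. Its hairpin lies within the bounds of BUD23, a methyltransferase gene. In plasma the 3p arm led with 272 counts against 73 for the 5p arm, a 3p share of 78.8% (74.1 to 83.0). In serum the 5p arm was listed with 12 counts and the 3p arm at 0. Even with that 0 taken as 9 reads, the serum 3p share would be 42.9%, and the upper end of its interval, 66.0%, lay below that of plasma. The serum value rests on 12 counts. Both comparisons of arms are within 1 library per fluid and do not depend on the scaling between libraries, but the sources used here do not say how reads were assigned to arms.

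**Figure D5:**
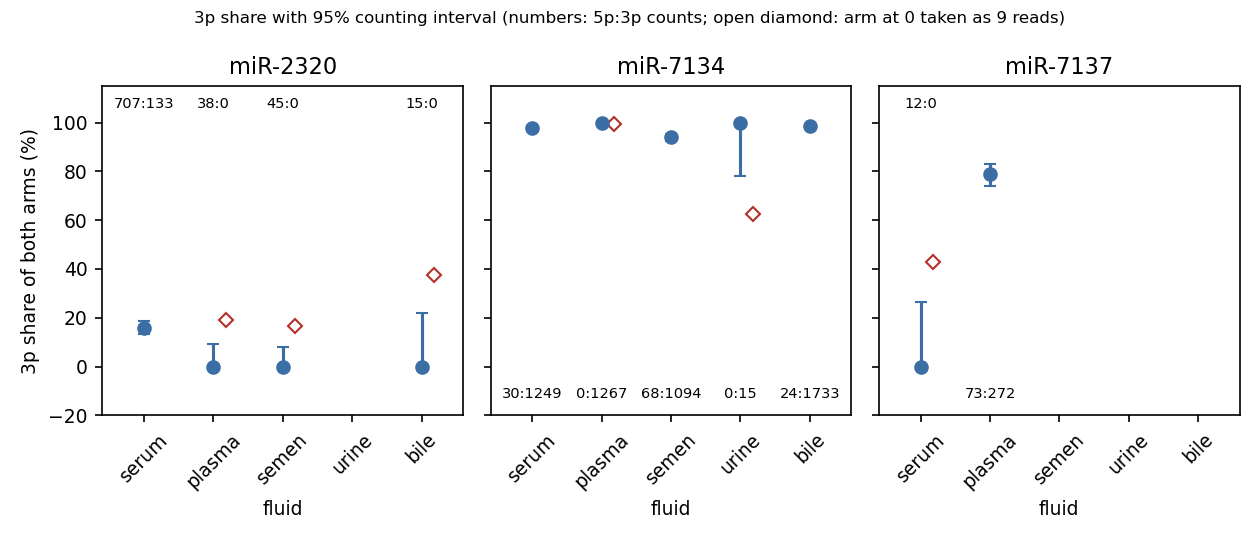
Share of the 3p arm in the counts of both arms (percent, y axis) of miR-2320, miR-7134 and miR-7137 in each fluid (x axis) with 95% counting intervals, the 5p and 3p counts printed, and open diamonds where an arm at 0 was taken as 9 reads. miR-7137 stands at 78.8% in plasma, and its serum diamond at 42.9%.

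The hairpins were looked up by name in the RefSeq gene table of Sscrofa11.1, a later build than the authors' Sscrofa10.2, so only names and neighbours were used. Of the 104 hairpin names 88 matched and 84 were placed on a chromosome. Of the 20 hairpins with an arm listed above 0, 19 were placed and 13 of these, 68.4%, lay within the bounds of a protein-coding gene. Among the 65 placed hairpins with no arm listed the share was 33, or 50.8%, and among the 201 placed hairpins with lower numbers or let-7 it was 102, or 50.7%. Of these 201, 167 were listed above 0, and 84 of the 167, 50.3%, lay within such a gene. The 68.4% rests on 19 hairpins, and no difference was tested. Strand was not given in the table, so an overlap does not show that the miRNA is transcribed with the gene. Among these genes were also DNPEP for miR-4334, ARGLU1 for miR-7144, E2F7 for miR-7139, MAP1A for miR-2366 and UBAP2L for miR-2411. miR-4331, miR-7136, miR-7143, miR-7857, miR-9858 and miR-9860 lay in no protein-coding gene, and miR-4332 was not matched.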

How the data were processed

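Small RNA libraries were made from exosomes of 5 fluids, 1 library each. The authors deposited a read count and an RPM value for each of 411 mature miRNA names. Per the submitters' processing notes bcl2fastq 2.17 and the build Sscrofa10.2 were used. Aligner, annotation release and the treatment of reads that match more than 1 miRNA are not stated in the sources used here, so counts of miRNAs with similar sequence are uncertain. The deposited RPM was divided into the counts to recover each library total (7207788 to 10801967 reads, no value off by more than 0.00461%).

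From the counts, shares and CPM of the miRNA total were computed with exact Clopper-Pearson 95% intervals, and ratios with exact conditional binomial 95% intervals (scipy 1.17.1). The protocol names no molecular identifiers. With 1 library per fluid no test was run. Rules of size were 100 counts, 4 times every other fluid, and 2-fold for serum against plasma, with counts under 10 taken as 10. The rule for 4 times every other fluid and the ratio intervals were tried on simulated counts far deeper than these libraries. That simulation does not cover the low counts met here, so no support is drawn from it. Scaling alternatives were edgeR 4.0.16 TMM, DESeq2 1.42.0 size factors, the deposited RPM and totals without the most abundant miRNA.

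Every listed miRNA is named, those with 100 counts in full. The miRNAs, lists and rules were chosen with earlier results of these data known. Mature sequences were not used here, and coordinates of the RefSeq gene table only to find genes that span a hairpin.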

Additional observations from a re-analysis of the deposited data

How the results depend on the processing

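No paired analysis was possible because each fluid has 1 library, and for the same reason no library could be left out within a fluid. The summed share of the high-numbered miRNAs moved beyond its counting interval with the denominator. Against the recovered library totals serum had 0.0256%, plasma 0.213%, semen 0.0182%, urine 0.000398% and bile 0.0247%. With the most abundant miRNA of each fluid left out of the total it was 0.699% in serum, 2.27% in plasma, 0.182% in semen and 0.229% in bile. Without the most abundant high-numbered miRNA serum had 0.309%, plasma 0.229%, semen 0.0380%, urine 0.0566% and bile 0.0522%. After thinning to 26522 counts per library, with values under 10 listed as 0, the median of 100 draws was 0.498% in serum, 1.24% in plasma, 0.0457% in semen and 0.137% in bile. The high-numbered names listed were then 3 of 91 listed names in serum, 2 of 50 in plasma, 1 of 61 in semen and 2 of 63.5 in bile, beside 2 of 84 in urine. At 30 counts or more the numbers were 14 in plasma, 7 in serum, 7 in semen, 4 in bile and 0 in urine. The share over all names at that limit is not given here. Enriched in serum were 1 with TMM (6.80% of all miRNAs with 100 counts there), 3 on the authors' RPM (11.7%), 2 with a ratio of 2 (29.1%), 2 with a floor of 3 counts (24.3%) and 4 without the urine library (28.2%), in place of 0 (12.6%). Enriched in plasma were 5 with TMM (29.1%), 4 with DESeq2 size factors (26.7%), 6 on the authors' RPM (23.3%) and 6 without the urine library (18.6%), in place of 1 (8.14%). In semen 1 was enriched on the authors' RPM (17.1%) in place of 0 (1.80%). The number at least 2-fold higher in serum than in plasma was 2 with TMM and 2 with DESeq2 size factors in place of 5. The plasma to serum ratio of the sum was 23.0 with TMM, 23.7 with DESeq2 size factors, 8.34 on the authors' RPM and 3.25 without the most abundant miRNA, in place of 2.33. Of the 9 ratios of single miRNAs between their leading and next listed fluids, 2 turned direction, those of serum to plasma for miR-7134-3p and miR-9858-5p. For miR-7134-3p the ratio became 0.243 with TMM, 0.671 on the authors' RPM and 0.236 with DESeq2 size factors. For miR-9858-5p it became 0.102, 0.281 and 0.0987, and 0.719 without the most abundant miRNA. The cause of these shifts was not tested.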
